A study of Mus musculus with 29 samples.

Results

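Peritoneal tissue of untreated mice with disseminated gastric tumors was compared with peritoneal tissue of mice cured by dual immune checkpoint inhibitor (ICI) therapy, 5 weeks after tumor injection. The comparison took 8 of the 29 RNA-seq libraries of the series: the 5 libraries labelled as untreated controls of day 35 (untreated mice 1 to 5) and 3 of the libraries labelled PD-1 and CTLA-4 of day 35 (mice 2, 3 and 4), and it covered all genes of the deposited count table. All mice were female C57BL/6J animals aged 5 to 6 weeks that carried YTN16, a cell line from a gastric adenocarcinoma of the same mouse strain, injected into the peritoneal cavity on day 0. Untreated mice received PBS. The other mice received anti-PD1 antibody at 10 mg/kg together with anti-CTLA4 antibody at 5 mg/kg into the peritoneal cavity, first on day 5, then on days 8 and 12, and last on days 21 and 28. Each library was made from the stripped peritoneum of 1 mouse, with or without nodules, and its label calls it tumor tissue in both groups.

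The labels do not say which mice were cured. The status was taken from the study, which numbers its cured dual ICI mice, on the assumption that those numbers are the library numbers. Cure was judged by the absence of tumor, so the groups were formed by outcome within the treated arm, and the comparison is not an estimate of the effect of the antibodies. No peritoneum of tumor-free, antibody-free mice entered the comparison, and the absence of tumor and the receipt of antibody cannot be told apart.

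The peritoneum is a single sheet of mesothelium on a thin bed of fibroblasts, fat and vessels, and stripping it from the abdominal wall brings some skeletal muscle along. Peritoneal dissemination is the usual route by which gastric cancer spreads within the abdomen: tumor cells attach to the mesothelium, invade the bed below it and recruit fibroblasts, vessels and myeloid cells. PD1 and CTLA4 are brakes on T cells that the antibodies release, and interferon gamma, antigen presentation on MHC molecules and JAK-STAT signalling belong to the response that follows. In bulk tissue a lower value can come from fewer cells of a type or from less RNA per cell, and these cannot be told apart.

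Counts assigned to genes totalled 26641402 to 31080946 in the untreated libraries and 27999482 to 28489995 in the cured libraries. The cured libraries correlated with each other at 0.992 to 0.995 across genes, the untreated at 0.932 to 0.992. Untreated mouse 2 stood apart from the other untreated mice. On the first principal component, which held 83.2% of the variance, it lay at 2.89, between the other untreated mice at 72.7 to 98.3 and the cured mice at -129 to -106. Its 40 sarcomere and muscle energy genes took 20.98% of all counts, against 6.66% to 14.5% in the other untreated mice and 22.2% to 23.8% in the cured mice. It had the lowest level of the 5 untreated mice for 103 of the 108 epithelial genes called lower in the cured group. It stayed in the comparison. Results without it are given for many of the lists and genes that changed, but not for all.

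The 2 tissues differed widely. Of 15816 genes tested, 7067 (44.7%) were called at an adjusted p under 0.05 by edgeR's quasi-likelihood test, 2848 (18.0%) higher and 4219 (26.7%) lower in the cured mice. The large changes were mostly falls: 1110 called genes were lower by more than 3 on the log2 scale and 34 were higher by as much. Values are CPM, counts scaled to a common library total, after TMM scaling, which sets libraries level by the bulk of their genes, and changes are log2 fold changes, cured minus untreated, with their standard error. Without untreated mouse 2, 9388 genes were called (4359 higher, 5029 lower), and without cured mouse 3 or cured mouse 4, 4491 and 4515. The median over all genes tested was -0.05. Scaling by library totals moved this median to -0.64 and left 1187 genes higher and 7386 lower, and scaling on the sarcomere genes moved it to -1.98 with 52 higher and 11668 lower. Of the 7067 called genes, 4271 were called in the same direction on sarcomere scaling and 267 in the opposite one, so the split into higher and lower genes depends on the scaling. Lists of genes are described below by how many members were called and by their median, to be read against these shares of all genes. Counts of members whose groups did not overlap are to be read against 7435 of the 15816 genes tested.

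**Figure D1:**
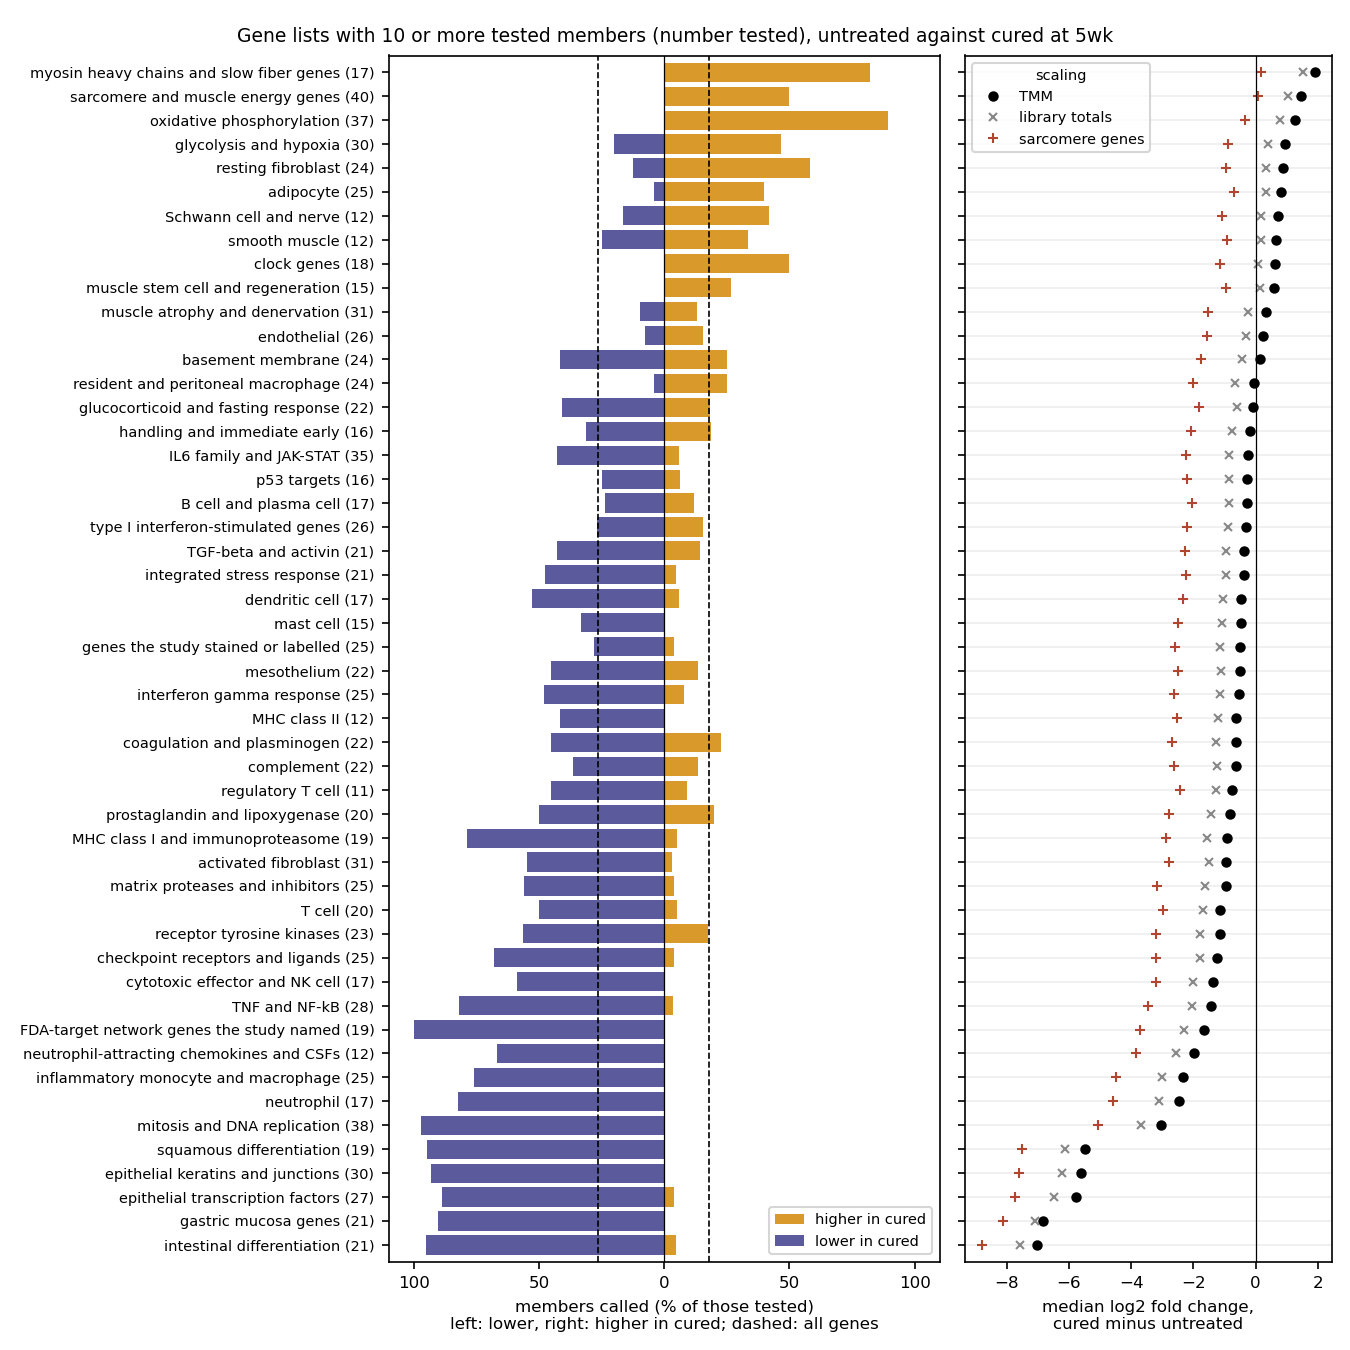
Gene lists with 10 or more tested members. Left: share of the tested members called lower (left of 0) or higher (right of 0) in the cured mice, in percent, with dashed lines at the shares of all genes tested (26.7% lower, 18.0% higher). Right: median log2 fold change of each list, cured minus untreated, under TMM scaling (black), library totals (grey) and scaling on sarcomere genes (red). Epithelial and mitosis lists lie lowest, and the lists of myosin, sarcomere and oxidative phosphorylation genes highest under TMM.

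Genes of the tumor epithelium were close to absent from the cured tissue. Epcam (chr17:87635979-87651129 in GRCm38), an adhesion protein of epithelial cells, was at 401, 106, 318, 335 and 386 CPM in untreated mice 1 to 5 and at 4.87, 0.723 and 0.310 CPM in cured mice 2, 3 and 4. The groups did not overlap, and the change was -7.30 ± 0.98 (adjusted p = 0.00049). Cdh1, E-cadherin, was at 306, 108, 345, 235 and 365 CPM against 3.62, 3.12 and 1.91 CPM. Its fall of 6.56 ± 0.52 on the log2 scale had an adjusted p of 0.00011, and again no untreated mouse came near the cured range. The label tumor tissue therefore matched the epithelial markers in the untreated libraries and went against them in the cured ones.

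All 30 tested genes of epithelial keratins and junctions gave 28 called lower and 0 called higher, with a median of -5.60. The groups did not overlap for 29 of them, against 7435 of all 15816 genes tested. Among the members of this list not called was Jup, plakoglobin, which was called without untreated mouse 2 (adjusted p = 0.023). Of the gastric mucosa genes, 19 of 21 tested were lower and 0 higher. Cldn18, the tight junction protein of the stomach, was at 36.6, 17.3, 48.4, 39.5 and 40.9 CPM in the untreated mice and at 0.325, 0.0452 and 0.0443 CPM in the cured mice (-8.03 ± 0.60, adjusted p = 0.00011). Pgc, which encodes the zymogen progastricsin, fell by 4.94 ± 0.61 (adjusted p = 0.00032), Muc1, a membrane mucin, by 5.08 ± 0.48 (adjusted p = 0.00015), and Sox2, a transcription factor of foregut epithelium, fell by 5.97 ± 0.62 (adjusted p = 0.00018). Tff2, the trefoil peptide of mucous neck cells, had 3 counts in cured mouse 2 and none in cured mice 3 and 4, against 27.6, 7.10, 72.8, 32.0 and 28.8 CPM in untreated mice 1 to 5. The ratio was 743 to 1, with a 95% interval of 254 to 3602 that covers counting error only.

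Of 21 tested intestinal genes, 20 were lower and 1, Anpep, was higher (0.53 ± 0.12, edgeR adjusted p = 0.0074). Anpep is an aminopeptidase that fibroblasts and myeloid cells also carry. It was at -0.05 on library totals (edgeR adjusted p = 0.84). On sarcomere scaling it was called lower, at -1.39 (edgeR adjusted p = 0.039). Guca2b (chr4:119656607-119658954), the gut peptide uroguanylin, came first among the falls of genes with at least 5 CPM in the higher group: it was at 30.2, 7.82, 10.7, 14.4 and 15.9 CPM in the untreated mice and had no count in any cured library. With the floor set at 3 counts over the 3 cured libraries together, 0.0453 CPM, it was at least 349-fold lower. Cdx2, the regulator of intestinal identity, was at 42.7, 13.8, 33.7, 37.3 and 35.6 CPM in the untreated mice and at 0.464, 0 and 0 CPM in the cured mice. Lgr5, a receptor of stem cells of stomach and gut, was at 5.62 to 19.1 CPM against 0.753 to 0.859 CPM (-3.89 ± 0.45, adjusted p = 0.00024). Squamous genes, which are typical of the forestomach and skin, gave 18 lower and 0 higher of 19 tested, among them Krt5 (-6.01 ± 1.01, adjusted p = 0.0015), a keratin of basal cells.

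Epithelial transcription factors gave 24 lower and 1 higher of 27 tested, with a median of -5.79. Hnf4a, a nuclear receptor of gut and liver epithelium, was at 98.96, 34.3, 78.0, 58.0 and 91.7 CPM in the untreated mice and at 0.325, 0 and 0.0443 CPM in the cured mice. Elf3, an ETS factor of epithelia, fell by 6.53 ± 0.49 (adjusted p = 0.00011). The member that was higher was Ovol1 (1.04 ± 0.30, adjusted p = 0.020), which was at 0.051 without cured mouse 3 and 0.079 without cured mouse 2. Trp63, the p63 factor of basal epithelia, was at 13.0 to 21.7 CPM in the untreated mice and 16.5 to 18.9 CPM in the cured mice, with overlapping groups and an adjusted p of 0.80.

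The epithelial signal left in cured tissue was uneven. Over the 108 epithelial genes called lower, cured mouse 2 was the highest of the 3 cured mice for 72, cured mouse 3 for 21 and cured mouse 4 for 9, and 6 had no count in any of them. The median level of these genes was 2.06% of the untreated mean in cured mouse 2, 1.19% in cured mouse 3 and 0.253% in cured mouse 4. Krt8 was at 18.4, 5.06 and 1.82 CPM in cured mice 2, 3 and 4, and Pigr, the receptor that carries antibody across epithelia, at 10.3, 0.226 and 0.354 CPM. Krt8 and Krt19 are also keratins of mesothelium, and Msln, the mesothelial marker mesothelin, stood in the same order, at 35.8, 20.3 and 8.46 CPM. Krt5, of the squamous list, was highest in cured mouse 3, at 1.54 CPM, against 0.371 and 0.0443 CPM in cured mice 2 and 4. Genes of epidermis and hair follicle summed to 40.3 CPM in cured mouse 3, against 5.75 and 4.21 CPM in cured mice 2 and 4. The parts of mesothelium and of skin in these counts were not tested.

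**Figure D2:**
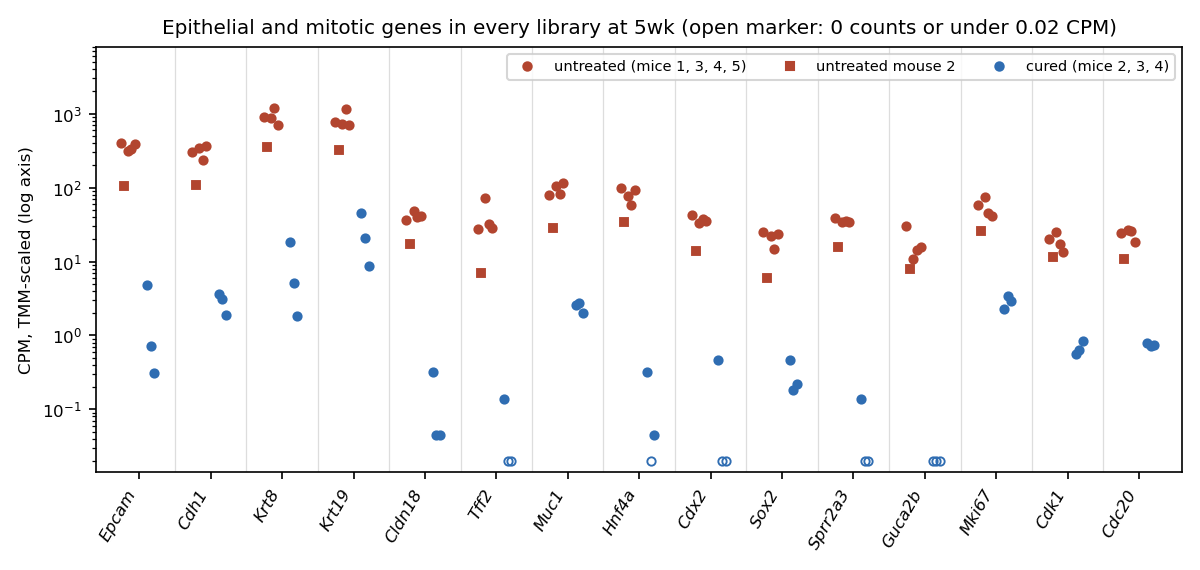
Levels of 12 epithelial and 3 mitotic genes in every library, in CPM on a log axis, for the untreated mice (red, mouse 2 as a square) and the cured mice (blue). Open markers at the bottom stand for libraries with no counts. No gene shown overlaps between the groups, untreated mouse 2 is the lowest untreated library for each, and for Epcam, Krt8 and Krt19 cured mouse 2 is the highest cured library.

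Genes of cell division fell together. Of 38 mitosis and DNA replication genes, all tested, 37 were lower and 0 higher, with a median of -3.04. Mki67, the antigen used to stain dividing cells, was at 59.1, 25.5, 74.5, 45.6 and 41.2 CPM in the untreated mice and at 2.27, 3.44 and 2.88 CPM in the cured mice (-4.10 ± 0.38, adjusted p = 0.00014). Cdk1, the kinase that drives entry into mitosis, was at 19.9, 11.4, 25.0, 17.3 and 13.5 CPM against 0.556, 0.633 and 0.842 CPM (-4.68 ± 0.35, adjusted p = 0.00011). Cdc20, an activator of the ligase that ends metaphase, fell by 4.80 ± 0.37 (adjusted p = 0.00011) and Plk1, a kinase of the spindle, fell by 4.42 ± 0.38 (adjusted p = 0.00013). The groups did not overlap for any of these. Pcna, the sliding clamp of DNA replication, fell by 0.68 ± 0.18 (adjusted p = 0.015; 0.051 without cured mouse 2 and 0.073 without cured mouse 3), and Cdc45, a helicase subunit, was the member not called (-0.64 ± 0.25, adjusted p = 0.060; 0.041 without untreated mouse 2 and 0.035 without untreated mouse 5).

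Promoters of mitotic genes are known for CCAAT boxes and for the cell cycle homology region TTTGAA near the start site. RefSeq promoters (GRCm38.p6, 250 bases before to 50 after the start) were found for 31 of the 38 genes, 33 promoters in all. On either strand, CCAAT was present in 27 of the 33 and in 37.4% of all 32851 promoters of that length, TTTGAA in 15 and in 17.9%, and both in 15 and in 7.0%. Matches can overlap, as CCAAT on opposite strands does once in the Ube2c promoter. The 3 promoters below belong to the list members with the lowest adjusted p that have 1 promoter in RefSeq and hold both motifs. They are shown 5′ to 3′ on the strand of the gene, with every match in capitals, and the matches are a description and not a test of binding. They lie at chr4:118437294-118437593 on the minus strand (Cdc20), chr10:69352863-69353162 on the minus strand (Cdk1) and chr2:164769679-164769978 on the plus strand (Ube2c, the E2 enzyme of the same ligase).
Cdc20: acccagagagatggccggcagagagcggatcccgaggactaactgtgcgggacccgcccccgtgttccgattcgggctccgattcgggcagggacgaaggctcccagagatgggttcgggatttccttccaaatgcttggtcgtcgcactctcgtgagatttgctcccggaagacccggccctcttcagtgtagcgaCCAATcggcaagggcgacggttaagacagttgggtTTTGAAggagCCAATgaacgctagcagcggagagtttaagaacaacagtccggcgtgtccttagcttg
Cdk1: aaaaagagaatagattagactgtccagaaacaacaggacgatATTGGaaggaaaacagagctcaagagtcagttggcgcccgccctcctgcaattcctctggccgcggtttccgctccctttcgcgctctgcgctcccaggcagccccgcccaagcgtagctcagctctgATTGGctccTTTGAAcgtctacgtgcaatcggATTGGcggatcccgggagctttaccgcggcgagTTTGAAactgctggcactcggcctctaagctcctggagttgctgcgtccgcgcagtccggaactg
Ube2c: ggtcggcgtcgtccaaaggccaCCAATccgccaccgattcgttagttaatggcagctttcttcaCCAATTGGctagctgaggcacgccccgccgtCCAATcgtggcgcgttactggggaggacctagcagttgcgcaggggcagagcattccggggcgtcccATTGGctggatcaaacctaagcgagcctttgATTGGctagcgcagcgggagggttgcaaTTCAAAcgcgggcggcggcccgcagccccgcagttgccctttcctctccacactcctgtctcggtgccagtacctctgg

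Receptor tyrosine kinases went both ways under TMM scaling. Of 23 tested, 13 were lower and 4 higher, with a median of -1.14. Erbb2 (HER2) was at 79.4, 33.3, 73.6, 69.0 and 89.3 CPM in the untreated mice and at 12.8, 12.0 and 10.3 CPM in the cured mice (-2.56 ± 0.31, adjusted p = 0.00029). Fgfr2, whose product is a drug target in gastric cancer, fell by 4.47 ± 0.60 (adjusted p = 0.00051) and Met, the receptor of hepatocyte growth factor, by 1.14 ± 0.24 (adjusted p = 0.0048). The higher members were Pdgfra (1.07 ± 0.18, adjusted p = 0.0015) and Fgfr1 (1.04 ± 0.22, adjusted p = 0.0048), receptors of fibroblasts and other mesenchymal cells, with Ret and Axl, and all 4 were below 0 on sarcomere scaling. On library totals 14 members were lower and 1, Fgfr1, higher, and on sarcomere scaling 19 were lower and 0 higher. Ret was not called without cured mouse 3 or 4 (edgeR adjusted p of 0.052 and 0.077). Axl was not called without untreated mouse 3 or 5 or any 1 cured mouse (edgeR adjusted p of 0.052 to 0.11). Of the 3 genes that give YTN16 its known neoantigens, Cdt1, a licensing factor of replication, fell (22.3, 7.89, 24.4, 19.1 and 13.3 CPM against 3.43, 2.76 and 2.26 CPM; -2.63 ± 0.39, adjusted p = 0.00078). Scarb2, a lysosomal membrane protein, was at 61.4 to 112 CPM against 84.7 to 112 CPM, with overlapping groups. Zfp106, which muscle and motor neurons express, was at 381, 1636, 563, 496 and 406 CPM against 1859, 2149 and 1790 CPM (1.47 ± 0.48, adjusted p = 0.032; -0.04 on sarcomere scaling). That call was lost, at 0.058 to 0.093, without any 1 library other than untreated mouse 2. The 19 genes that the study named as a network of drug targets were all lower, with a median of -1.66. That list was chosen by the study on these samples and its direction is not independent evidence.

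Skeletal muscle genes took a larger share of counts in the cured libraries than in any untreated library. Of 40 sarcomere and muscle energy genes, 20 were higher and 0 lower, with a median of 1.46 (0.07 on sarcomere scaling, as that scaling sets the list level). Without untreated mouse 2, 38 were called, all higher. Without untreated mouse 1, 3 or 5 the count was 13, 11 and 12, and without cured mouse 2, 3 or 4 it was 10, 9 and 10. Myosin heavy chain and slow fiber genes gave 14 higher and 0 lower of 17, with a median of 1.92 (0.17 on sarcomere scaling). The genes that took the most reads in either group were not called: Myh4, the fastest myosin, was at 10880, 58500, 14010, 23200 and 9515 CPM in untreated mice 1 to 5 and at 59360, 60570 and 57030 CPM in the cured mice, and the groups overlapped through untreated mouse 2 (1.34 ± 0.72, adjusted p = 0.15; 0.0021 without that mouse). Acta1, skeletal actin, Atp2a1, the calcium pump of fast fibers, Aldoa, muscle aldolase, Actn3 and Tnnt3 were not called either, with adjusted p of 0.083 to 0.39, and each was called without untreated mouse 2 (0.0030 to 0.035). Of these 5, the groups overlapped for Actn3 and not for the other 4.

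Some muscle genes rose beyond the sarcomere as a whole. Myh2 (chr11:67171027-67197517), the myosin of fast oxidative fibers, was at 435, 757, 437, 597 and 508 CPM in the untreated mice and at 5734, 5491 and 5258 CPM in the cured mice. Untreated mouse 2, level with the cured mice for Myh4, lay with the other untreated mice for Myh2. The change was 3.33 ± 0.30 (adjusted p = 0.00014), and 1.54 (adjusted p = 0.00089) on sarcomere scaling. Mb, myoglobin, the oxygen store of oxidative fibers, was at 125, 527, 116, 306 and 77.5 CPM against 2612, 2085 and 2074 CPM (3.29 ± 0.58, adjusted p = 0.0021; 1.95 with an adjusted p of 0.00023 on sarcomere scaling). Ckmt2 (chr13:91853387-91876885), the mitochondrial creatine kinase of muscle, was at 49.9, 199, 56.3, 97.2 and 43.8 CPM against 990, 1029 and 919 CPM (3.46 ± 0.48, adjusted p = 0.00062; 2.01 on sarcomere scaling). Casq1, the calcium store of fast fibers, rose by 2.57 ± 0.61 (adjusted p = 0.0087), Myl2, the slow regulatory light chain, by 2.68 ± 0.54 (adjusted p = 0.0039), and Myh7, the slow myosin, by 2.31 ± 0.53 (adjusted p = 0.0073), and each stayed called on sarcomere scaling.

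Satellite cell genes gave 4 higher and 0 lower of 15 (median 0.58, and -0.94 on sarcomere scaling), with 8 higher without untreated mouse 2. Pax7, which marks muscle stem cells, was at 1.52, 2.05, 1.21, 0.534 and 1.19 CPM against 4.36, 6.60 and 7.89 CPM (2.27 ± 0.37, adjusted p = 0.0014). Of 31 atrophy and denervation genes, 4 were higher and 3 lower, which is under the shares of all genes. The count of called members was 15 without untreated mouse 2, 4 without untreated mouse 1 or 5, 3 without cured mouse 2 and 2 without cured mouse 3 or 4. Trim63 and Fbxo32, the ubiquitin ligases that rise in wasting muscle, were not called: Trim63 was at 78.3 to 363 CPM in the untreated mice and 228 to 270 CPM in the cured mice. Runx1, a factor that denervated and injured muscle turns on and that epithelium and leukocytes also express, fell by 2.48 ± 0.23 (adjusted p = 0.00015), and Ankrd1, a stretch-response gene of muscle, fell by 3.27 ± 0.57 (adjusted p = 0.0020). Ankrd2, a related gene of slow fibers that the study labelled in its plots, was higher (33.3, 40.6, 24.7, 56.4 and 94.1 CPM against 207, 131 and 138 CPM; 1.67 ± 0.38, adjusted p = 0.0075; -0.34 on sarcomere scaling).

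**Figure D3:**
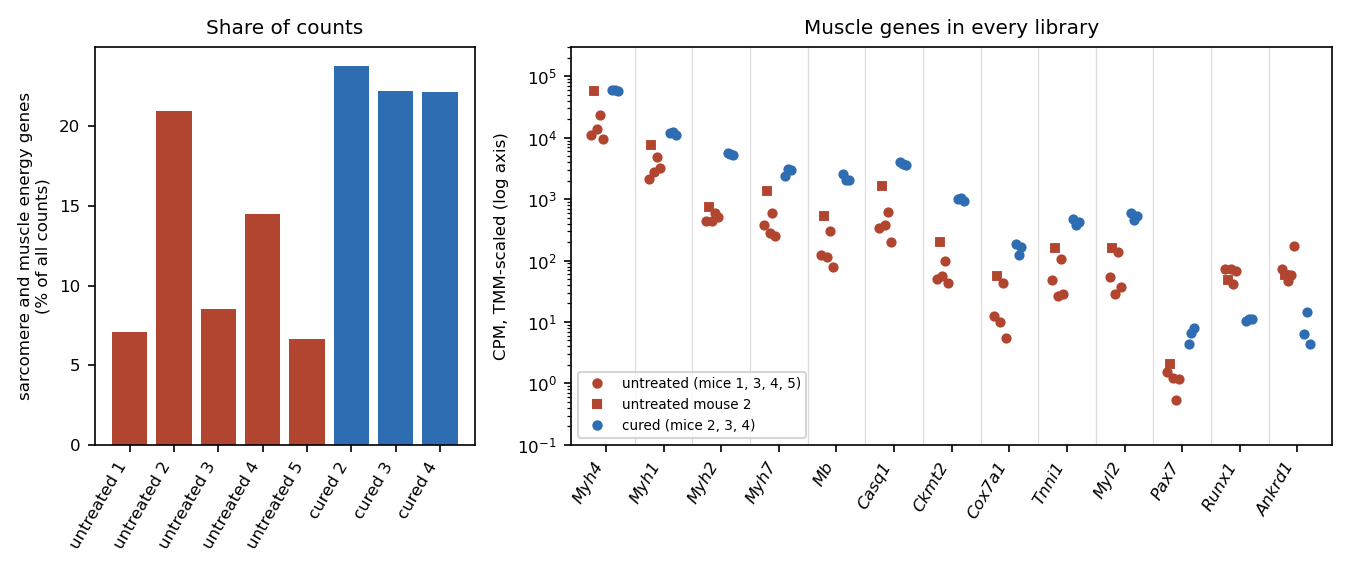
Left: share of all counts taken by 40 sarcomere and muscle energy genes in each library, in percent, between 6.66% and 20.98% in the untreated mice (red) and between 22.2% and 23.8% in the cured mice (blue). Right: 13 muscle genes in every library, in CPM on a log axis; untreated mouse 2 (square) reaches the cured mice for Myh4 and not for Myh2, Mb or Ckmt2.

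Of 37 nuclear genes of oxidative phosphorylation, 33 were higher and 0 lower. The groups did not overlap for 34 of them, against 7435 of all 15816 genes tested. The list median of 1.27 became 0.80 on library totals and -0.35 on sarcomere scaling. The part of the larger muscle share in these rises, and in those of the clock, glucose and fibroblast genes below, was not tested beyond that scaling. Ndufs1, the largest subunit of complex I, was at 70.1, 147, 75.0, 74.4 and 74.2 CPM in the untreated mice and at 322, 363 and 351 CPM in the cured mice (1.97 ± 0.26, adjusted p = 0.00047). Sdha, of complex II, rose by 1.51 ± 0.29 (adjusted p = 0.0030), Uqcrc2, of complex III, by 1.56 ± 0.28 (adjusted p = 0.0023) and Cyc1, cytochrome c1, by 1.65 ± 0.30 (adjusted p = 0.0025). Glycolysis and hypoxia genes gave 14 higher and 6 lower of 30 (median 0.96, and -0.88 on sarcomere scaling). Slc2a4 (GLUT4), the insulin-responsive glucose carrier of muscle and fat, rose by 1.88 ± 0.42 (adjusted p = 0.0068) and the muscle lactate exporter Slc16a3 by 1.92 ± 0.41 (adjusted p = 0.0051). Aldoc, an aldolase of other tissues, fell from 5.24 to 16.3 CPM in the untreated mice to 0.975 to 1.85 CPM in the cured mice (-3.32 ± 0.43, adjusted p = 0.00041).

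Of 18 clock genes, 9 were higher and 0 lower (median 0.62, and -1.15 on sarcomere scaling), 4 were higher and 4 lower on library totals, and the count was 4 or 5 without untreated mouse 1 or 5 or any 1 cured mouse. Bhlhe41, a repressor of the clock, was at 21.01, 36.8, 24.0, 25.5 and 25.5 CPM against 75.0, 76.4 and 69.3 CPM (1.47 ± 0.18, adjusted p = 0.00030). Nr1d1 (REV-ERBα) rose by 1.59 ± 0.27 (adjusted p = 0.0015) and Dbp, a clock-driven activator, by 1.83 ± 0.37 (adjusted p = 0.0041). Times of collection were not given in the sources used here. Of 25 adipocyte genes, 10 were higher and 1 lower (median 0.83, and -0.70 on sarcomere scaling). Scd1 (chr19:44394455-44407879), the stearoyl-CoA desaturase, was at 153, 104, 110, 113 and 83.2 CPM in the untreated mice and spread over 1216, 591 and 297 CPM in the cured mice (2.64 ± 0.39, adjusted p = 0.00086; 0.65 on sarcomere scaling). Fasn, fatty acid synthase, was at 87.4 to 211 CPM against 845, 393 and 295 CPM (1.73 ± 0.37, adjusted p = 0.0051; -0.33 on sarcomere scaling). Both were highest in cured mouse 2 and lowest in cured mouse 4. The hormone gene of fat cells, Adipoq, was at 22.3 to 100.9 CPM in the untreated mice and 76.0 to 106 CPM in the cured mice, with overlapping groups, and Pparg, the master regulator of fat cells, fell by 0.82 ± 0.14 (adjusted p = 0.0017).

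Genes that glucocorticoids, zinc and fasting induce gave 9 lower and 4 higher of 22 tested, and 9 lower and 9 higher without untreated mouse 2. Mt2, a metallothionein, was at 114, 152, 105.4, 339 and 206 CPM in the untreated mice and at 19.5, 10.3 and 11.8 CPM in the cured mice (-3.72 ± 0.47, adjusted p = 0.00037). Lpl, the lipase that draws fat from blood into muscle and fat, rose by 1.55 ± 0.39 (adjusted p = 0.011; -0.01 on sarcomere scaling). Dusp1, a phosphatase that glucocorticoids induce, rose by 1.63 ± 0.33 (adjusted p = 0.0043; 0.0 on sarcomere scaling). Near the shares of all genes, 3 were higher and 5 lower of 16 genes that respond to handling of tissue. Fos, the fastest of them, was at 16.1 to 60.8 CPM against 47.2 to 70.9 CPM and was not called.

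Of 24 resting fibroblast genes, 14 were higher and 3 lower, with a median of 0.89 (0.34 on library totals and -0.94 on sarcomere scaling). The counts were 8 higher and 8 lower on library totals and 0 higher and 11 lower on sarcomere scaling. Ebf2, a transcription factor of mesenchymal precursors, was at 6.94, 9.64, 7.20, 5.59 and 6.40 CPM against 20.9, 28.3 and 23.9 CPM (1.77 ± 0.19, adjusted p = 0.00021). Dpp4, a peptidase that marks interstitial progenitors, rose by 1.37 ± 0.18 (adjusted p = 0.00051), and Cd248, endosialin, by 1.41 ± 0.21 (adjusted p = 0.00076). Of the 3 lower members, Penk, proenkephalin, was at 34.7 to 95.2 CPM against 12.5 to 16.8 CPM (-2.25 ± 0.32, adjusted p = 0.00069), and Has1 and Sfrp4 were the others, Sfrp4 not called without any 1 cured mouse (adjusted p of 0.068 to 0.074).

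Of 31 activated fibroblast genes, 17 were lower and 1 higher, with a median of -0.94. Tnc (chr4:63959785-64047015), the wound and tumor matrix protein tenascin C, was at 320, 135, 205, 138 and 145 CPM in the untreated mice and at 8.16, 13.6 and 15.5 CPM in the cured mice (-3.92 ± 0.40, adjusted p = 0.00017). Lrrc15, a marker of cancer-associated fibroblasts, fell by 4.24 ± 0.49 (adjusted p = 0.00025), and Cthrc1, secreted by repair fibroblasts, by 3.23 ± 0.36 (adjusted p = 0.00021). The common names of the activated state did not follow them. Fap was the member that was higher (17.8 to 21.3 CPM against 25.6 to 27.5 CPM, 0.47 ± 0.12, edgeR adjusted p = 0.013). That call was lost without cured mouse 3 (edgeR adjusted p = 0.059) or cured mouse 4 (0.065). On library totals Fap was at -0.11 (edgeR adjusted p = 0.66). On sarcomere scaling it was called lower, at -1.44 (edgeR adjusted p = 0.039). Acta2, smooth muscle actin, was at 67.8 to 100 CPM against 66.1 to 82.5 CPM and was not called. Col1a1, the main collagen, was at 1509 to 2803 CPM against 1134 to 1316 CPM, and its fall had an adjusted p of 0.083 (0.018 without untreated mouse 2).

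Of 22 tested mesothelium genes, 10 were lower and 3 higher. Msln (chr17:25748613-25754378) was at 307, 86.9, 224, 255 and 251 CPM in the untreated mice and at 35.8, 20.3 and 8.46 CPM in the cured mice (-3.39 ± 0.55, adjusted p = 0.0014). Wt1, a transcription factor of mesothelium, fell by 2.30 ± 0.43 (adjusted p = 0.0026). Upk3b, a mesothelial membrane protein, was at 53.7, 24.0, 48.0, 43.4 and 36.7 CPM against 59.3, 47.0 and 14.4 CPM, so the groups overlapped. Keratins and mesothelin can come from tumor epithelium as well as from mesothelium, and their share was not tested.

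**Figure D4:**
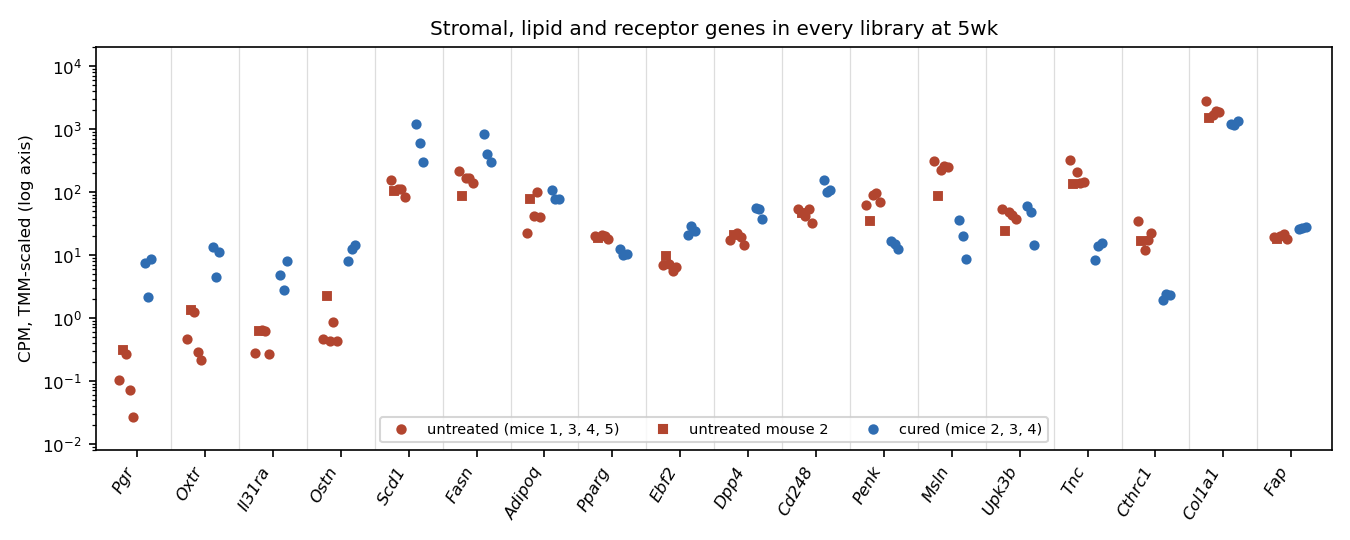
Levels of receptor, lipid and stromal genes in every library, in CPM on a log axis, for the untreated mice (red, mouse 2 as a square) and the cured mice (blue). Pgr, Oxtr, Scd1, Ebf2 and Dpp4 are higher and Tnc, Cthrc1, Penk and Msln lower in all cured mice, and the groups overlap for Adipoq and Upk3b.

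Of 24 basement membrane genes, 10 were lower and 6 higher, and on library totals 11 were lower and 2 higher. Of the laminin chains of epithelia, Lama3 fell by 3.11 ± 0.35 (adjusted p = 0.00023) and Lamb3 fell by 4.03 ± 0.41 (adjusted p = 0.00017). Lama2, the laminin chain of muscle and nerve, rose by 1.00 ± 0.12 (adjusted p = 0.00028; 0.085 on library totals, and -0.92 on sarcomere scaling). Of 25 matrix proteases and inhibitors tested, 14 were lower and 1, Adamts5, an aggrecanase, higher, though not without untreated mouse 1 or 5 or cured mouse 2 or 3 (adjusted p of 0.052 to 0.14). Without untreated mouse 2, 19 were lower and 2 higher. On library totals 20 were lower and 0 higher, and on sarcomere scaling 24 were lower and 0 higher. Adamts5 was at -0.08 on library totals (edgeR adjusted p = 0.76). On sarcomere scaling it was called lower, at -1.4 (edgeR adjusted p = 0.042). Mmp7, matrilysin, which epithelium makes, was at 13.2, 4.33, 25.2, 21.9 and 34.6 CPM in the untreated mice and had 1 count in cured mouse 2 and none in cured mice 3 and 4. Timp1, the inhibitor of many of these proteases, fell by 4.25 ± 0.37 (adjusted p = 0.00013). Mmp9, the gelatinase of neutrophils and macrophages, was at 16.8 to 32.5 CPM against 23.6 to 31.7 CPM and was not called.

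Of 26 endothelial genes, 4 were higher and 2 lower (median 0.23, and -1.57 on sarcomere scaling), under the shares of all genes, with 11 higher and 3 lower without untreated mouse 2 and 3 called without cured mouse 4. Pecam1, the pan-endothelial marker, was at 87.1 to 136 CPM against 117 to 121 CPM (not called, adjusted p of 0.037 without untreated mouse 2). Tek, the angiopoietin receptor of resting vessels, rose from 17.4 to 38.1 CPM in the untreated mice to 53.2 to 55.7 CPM in the cured mice (1.19 ± 0.23, adjusted p = 0.0035; -0.57 on sarcomere scaling). Plvap, a protein of vessel openings that growing vessels carry, was at 80.4 to 130 CPM against 45.1 to 69.4 CPM (-0.87 ± 0.21, adjusted p = 0.0084). Of 12 tested Schwann cell and nerve genes, 5 were higher and 2 lower, with 8 and 3 without untreated mouse 2 and 2 and 4 called without cured mice 2 and 4, and of 12 smooth muscle genes 4 were higher and 3 lower.

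Of 20 tested T cell genes, 10 were lower and 1 higher, with 7 called without cured mouse 3 or 4. Cd3e, of the T cell receptor complex, was at 2.01, 1.86, 2.00, 1.99 and 2.09 CPM in the untreated mice and at 0.417, 0.633 and 1.51 CPM in the cured mice (-1.22 ± 0.39, adjusted p = 0.031; 0.051 to 0.12 without any 1 mouse other than untreated mouse 2 and cured mouse 4). Cd4 was at 2.20 to 4.06 CPM against 1.27 to 1.34 CPM (-1.26 ± 0.28, adjusted p = 0.0063). Cd8a was at 3.02, 1.86, 2.51, 4.24 and 2.99 CPM against 2.78, 1.09 and 1.595 CPM, so the groups overlapped (-0.68 ± 0.37, adjusted p = 0.15). Tcf7, a factor of naive and memory T cells, fell by 2.55 ± 0.31 (adjusted p = 0.00029). The riser was Cd28, the costimulatory receptor, at 0.926 to 3.30 CPM against 4.87 to 6.47 CPM (1.72 ± 0.36, adjusted p = 0.0049; -0.02 on sarcomere scaling).

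Both targets of the antibodies were lower in the cured mice. Pdcd1 (chr1:94038305-94052553), which encodes PD1, was at 3.28, 2.24, 3.53, 3.85 and 2.78 CPM in the untreated mice and at 0.278, 0.136 and 0.266 CPM in the cured mice (-3.77 ± 0.37, adjusted p = 0.00015). Ctla4 was at 1.70, 0.835, 1.24, 2.32 and 0.714 CPM against 0.371, 0.226 and 0.354 CPM (-2.09 ± 0.50, adjusted p = 0.0091). The groups did not overlap for either gene. Of 25 checkpoint genes tested, 17 were lower and 1 higher. Tnfrsf9 (4-1BB), a receptor of activated T cells, fell by 3.75 ± 0.42 (adjusted p = 0.00022), while Cd274, the PD1 ligand PD-L1, was at 7.48 to 11.4 CPM against 9.04 to 14.1 CPM and was not called. Of 11 tested regulatory T cell genes, 5 were lower and 1 higher. Foxp3, the factor of regulatory T cells, was at 2.54, 3.26, 2.43, 2.64 and 1.38 CPM against 0.0927, 0.407 and 0.487 CPM (-2.87 ± 0.50, adjusted p = 0.0018). Of 17 tested cytotoxic and NK cell genes, 10 were lower and 0 higher, with 5 lower without cured mouse 3 and 6 without cured mouse 4. Gzma, a granule protease, fell by 2.77 ± 0.57 (adjusted p = 0.0045), and Gzmb, its relative, was at 0.531 to 1.28 CPM against 0.266 to 0.464 CPM (adjusted p = 0.056; 0.025 without untreated mouse 2).

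B cell and plasma cell genes gave 4 lower and 2 higher of 17 tested, near or under the shares of all genes. Irf4, a factor of plasma cells that muscle, fat and macrophages also express, was at 5.35 to 9.08 CPM against 21.7 to 24.6 CPM (1.77 ± 0.19, adjusted p = 0.00018; -0.12 on sarcomere scaling).

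Of 24 resident and peritoneal macrophage genes, 6 were higher and 1 lower (median -0.04), and without untreated mouse 2 it was 7 and 7. On library totals it was 3 higher and 8 lower, and on sarcomere scaling 0 higher and 16 lower. Timd4 (chr11:46810800-46844332), a receptor for dying cells on resident macrophages, was at 1.40, 1.75, 1.503, 1.75 and 1.88 CPM in the untreated mice and at 5.15, 5.65 and 7.18 CPM in the cured mice (1.86 ± 0.21, adjusted p = 0.00024; -0.03 on sarcomere scaling). Cd209f, a lectin of resident macrophages, rose by 1.67 ± 0.19 (adjusted p = 0.00024; -0.25 on sarcomere scaling). The member that was lower was Vsig4, a complement receptor (adjusted p of 0.055 without cured mouse 2). A general marker did not separate the groups: Csf1r, the receptor that macrophages need to live, was at 94.96 to 213 CPM against 133 to 166 CPM.

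Of 25 tested genes of inflammatory monocytes and macrophages, 19 were lower and 0 higher, with a median of -2.35. Spp1, osteopontin, which tumor macrophages and tumor epithelium secrete, was at 515, 138, 777, 369 and 447 CPM against 16.4, 6.01 and 6.78 CPM (-5.53 ± 0.67, adjusted p = 0.00030). Il1b was at 3.33 to 8.31 CPM against 0.139 to 0.532 CPM (-4.24 ± 0.48, adjusted p = 0.00022) and Tnf at 5.35 to 7.86 CPM against 0.271 to 0.649 CPM (-3.87 ± 0.33, adjusted p = 0.00013). Arg1, arginase, fell by 3.63 ± 0.49 (adjusted p = 0.00051) and Trem2, a lipid receptor of tumor macrophages, by 2.69 ± 0.42 (adjusted p = 0.0011). The groups did not overlap for any of these 5 genes.

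Neutrophil genes gave 14 lower and 0 higher of 17 tested, with a median of -2.45. S100a8 (chr3:90668978-90670035), a subunit of calprotectin, was at 17.9, 5.85, 12.3, 13.6 and 18.0 CPM in the untreated mice and at 0, 0.362 and 0.709 CPM in the cured mice (-5.22 ± 0.71, adjusted p = 0.00053). Csf3r, the receptor of G-CSF, fell by 2.45 ± 0.39 (adjusted p = 0.0012), and Ltf, lactoferrin, which epithelium also secretes, by 6.71 ± 0.90 (adjusted p = 0.00049). Of 12 tested chemokines and growth factors that draw neutrophils, 8 were lower and 0 higher. Cxcl5 (chr5:90759360-90761624) was at 130, 31.5, 105, 79.0 and 61.6 CPM against 0.695, 0.0452 and 0.177 CPM (-8.05 ± 0.76, adjusted p = 0.00015). Cxcl3 and Ccl20 had no count in any cured library and were at least 84.0-fold and 72.3-fold lower. Of 15 mast cell genes, 5 were lower and 0 higher, with 8 called without untreated mouse 2: Mcpt1, a protease of mucosal mast cells, had no count in the cured mice, against 0.911 to 3.93 CPM (at least 58.3-fold lower), while Mcpt4, of connective tissue mast cells, was at 10.6 to 32.8 CPM against 22.3 to 27.9 CPM and was not called. Of 17 dendritic cell genes, 9 were lower and 1 higher, and Ccr7, the receptor of migrating dendritic cells and naive T cells, fell by 2.73 ± 0.42 (adjusted p = 0.0010).

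**Figure D5:**
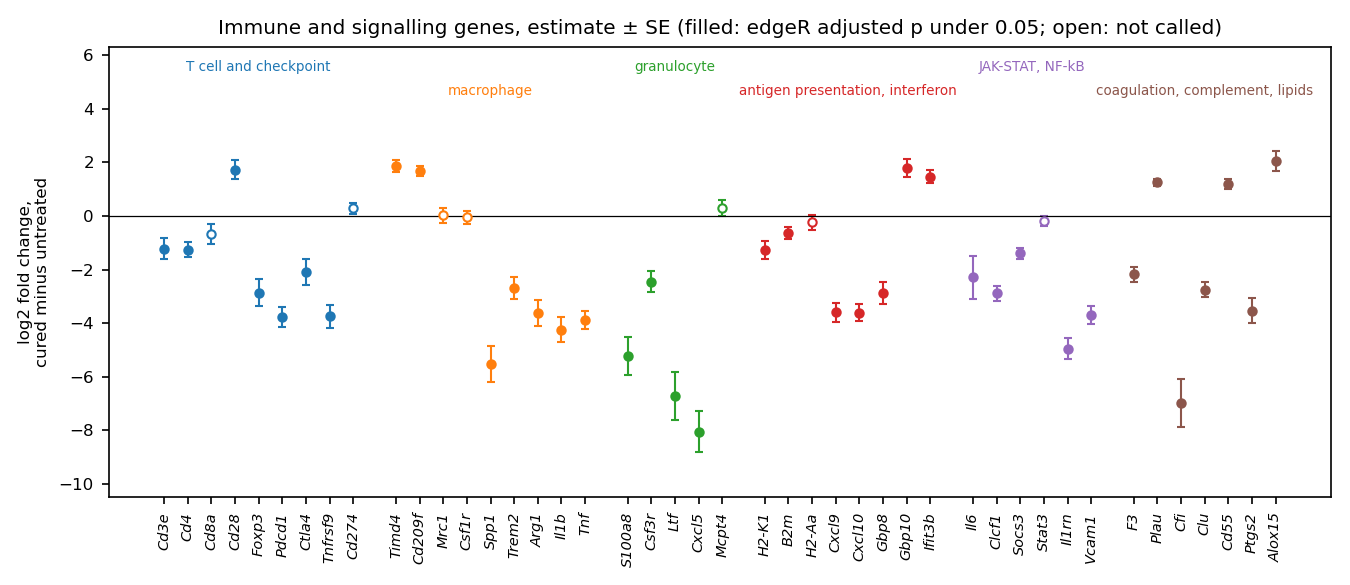
Log2 fold change, cured minus untreated, with its standard error, for immune and signalling genes in 6 groups. Filled points passed edgeR's test at an adjusted p under 0.05 and open points did not. Cxcl5 (-8.05), Cfi (-6.98), Spp1 (-5.53) and Pdcd1 (-3.77) are far below 0, Cd8a, Csf1r and Stat3 are not called, and Timd4, Gbp10, Plau and Alox15 are above 0 under TMM scaling.

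Of 19 tested genes of MHC class I and the immunoproteasome, 15 were lower and 1 higher, with 6 called without cured mouse 3 and 9 without cured mouse 4. H2-K1, a classical heavy chain, was at 1007, 470, 823, 1150 and 1050 CPM in the untreated mice and at 413, 306 and 398 CPM in the cured mice (-1.27 ± 0.32, adjusted p = 0.011; 0.060 without cured mouse 3). Psmb8, a catalytic subunit of the immunoproteasome, fell by 1.53 ± 0.33 (adjusted p = 0.0055), and Nlrc5, the class I activator, by 1.45 ± 0.30 (adjusted p = 0.0043). Of 12 MHC class II genes, 5 were lower and 0 higher, with 2 called without cured mouse 2 and 1 without cured mouse 4, and H2-Aa was at 174 to 390 CPM against 211 to 245 CPM. Near-identical class I genes share reads, and H2-Q6 and H2-Q7 are listed at or near 0 in every library.

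Of 25 interferon gamma response genes, 12 were lower and 2 higher (median -0.52). The T cell chemokine Cxcl9 was at 49.9, 20.2, 36.3, 39.4 and 35.9 CPM in the untreated mice and at 4.22, 2.03 and 2.75 CPM in the cured mice (-3.60 ± 0.35, adjusted p = 0.00015), and Cxcl10 fell by as much (-3.61 ± 0.31, adjusted p = 0.00013). Of the guanylate-binding proteins, Gbp8 fell by 2.87 ± 0.40 (adjusted p = 0.00057) and Gbp10 rose by 1.79 ± 0.33 (adjusted p = 0.0025; -0.21 on sarcomere scaling). Of 26 type I interferon-stimulated genes, 7 were lower and 4 higher, near the shares of all genes. The count of called members was 6 or 7 without untreated mouse 5 or any 1 cured mouse. Ifit3b was at 2.82 to 5.62 CPM against 10.4 to 11.3 CPM (1.46 ± 0.25, adjusted p = 0.0019; -0.26 on sarcomere scaling), and Oas2, a sensor enzyme of the same response, fell by 1.12 ± 0.26 (adjusted p = 0.0077).

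Of 35 genes of the IL6 family and JAK-STAT pathway, 15 were lower and 2, Lifr and Jak1, higher, and Jak1 was called in the full set and without untreated mouse 2 or 4 but not without any 1 other library (adjusted p of 0.067 to 0.13). Clcf1, an IL6-family ligand, was at 25.3, 14.7, 30.3, 19.8 and 22.4 CPM against 2.504, 3.03 and 3.54 CPM (-2.89 ± 0.27, adjusted p = 0.00014). Il22ra1, the receptor of epithelia for IL22, fell by 4.38 ± 0.51 (adjusted p = 0.00025), and the feedback inhibitor Socs3 by 1.39 ± 0.21 (adjusted p = 0.00089). Stat3 was at 152 to 225 CPM against 159 to 186 CPM and was not called. Without untreated mouse 2 this list gave 8 higher and 17 lower, and without cured mouse 2 the count of called members was 11. On library totals it gave 0 higher and 20 lower, and on sarcomere scaling 0 higher and 29 lower. Lifr was at 0.12 on library totals (edgeR adjusted p = 0.6) and at -1.19 on sarcomere scaling (edgeR adjusted p = 0.069). Of 28 TNF and NF-kB genes, 23 were lower and 1, Tnfaip2, higher, with a median of -1.43. Tnfaip2 was not called without any 1 library other than untreated mouse 2 or 4 (edgeR adjusted p of 0.068 to 0.17). It was at 0.14 on library totals and at -1.1 on sarcomere scaling, not called on either. Vcam1, an adhesion molecule for leukocytes, was at 165, 61.1, 132, 98.4 and 104.9 CPM against 8.58, 8.55 and 8.73 CPM (-3.70 ± 0.33, adjusted p = 0.00013), and Il1rn, the antagonist of the IL1 receptor, fell by 4.95 ± 0.39 (adjusted p = 0.00011). Of 21 TGF-beta and activin genes, 9 were lower and 3 higher. Ltbp2, a matrix protein of the latent TGF-beta family, fell by 4.90 ± 0.42 (adjusted p = 0.00013). The ligand Bmp7 was at 1.06 to 2.54 CPM against 7.44 to 11.2 CPM (2.26 ± 0.29, adjusted p = 0.00037; 0.51 with an adjusted p of 0.45 on sarcomere scaling).

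Coagulation genes gave 10 lower and 5 higher of 22 tested. F3, tissue factor, the start of clotting, was at 43.1, 23.2, 52.2, 40.9 and 32.8 CPM against 9.32, 8.91 and 7.22 CPM (-2.18 ± 0.27, adjusted p = 0.00032). The plasminogen activator Plau (chr14:20836660-20843385) was at 25.5 to 32.9 CPM against 63.6 to 72.9 CPM (1.25 ± 0.14, adjusted p = 0.00021; -0.68 on sarcomere scaling), and Plaur fell by 2.26 ± 0.28 (adjusted p = 0.00033). Proc, protein C, had no count in the cured mice, against 1.14 to 2.11 CPM. Of 22 complement genes, 8 were lower and 3 higher, with 18 called without untreated mouse 2, 7 without cured mouse 2 and 6 without cured mouse 3. Clu, clusterin, fell from 1028 to 1676 CPM to 200 to 218 CPM (-2.76 ± 0.28, adjusted p = 0.00017), Cfi, factor I, fell by 6.98 ± 0.91 (adjusted p = 0.00042), and Cd55, which shields cells from complement, rose by 1.19 ± 0.20 (adjusted p = 0.0015; -0.67 on sarcomere scaling). C3 was at 1328 to 2745 CPM against 1649 to 1747 CPM and was not called. Of 20 prostaglandin and lipoxygenase genes, 10 were lower and 4 higher: Ptgs2 (COX2) was at 5.74 to 19.4 CPM against 0.709 to 0.974 CPM (-3.53 ± 0.48, adjusted p = 0.00050), and Alox15, the lipoxygenase of resident macrophages, at 3.53 to 10.7 CPM against 18.3 to 37.2 CPM (2.04 ± 0.38, adjusted p = 0.0028; 0.03 on sarcomere scaling).

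Of 21 tested genes of the integrated stress response, 10 were lower and 1, Atf5, higher (adjusted p of 0.077 without cured mouse 2 and 0.052 without cured mouse 3). Slc7a11, the cystine carrier that tumors depend on, was at 10.8, 3.30, 16.7, 6.23 and 11.5 CPM in the untreated mice and had 1 count in each cured library, a ratio of 215 with a counting interval of 73.4 to 1040. Asns, asparagine synthetase, fell by 3.01 ± 0.34 (adjusted p = 0.00022). Of 16 p53 targets, 4 were lower and 1 higher, near or under the shares of all genes, with 8 called without untreated mouse 2. Pmaip1 (NOXA), which promotes cell death, fell by 4.14 ± 0.44 (adjusted p = 0.00019).

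The 10 largest rises, among called genes with at least 5 CPM in the higher group and no overlap, included 3 receptors. Pgr (chr9:8899833-8968611), the progesterone receptor, was at 0.102, 0.304, 0.264, 0.0712 and 0.0265 CPM in the untreated mice and at 7.33, 2.17 and 8.55 CPM in the cured mice. Its change of 5.29 ± 0.63 (adjusted p = 0.00027) was the largest of them, and it was 3.65 (adjusted p = 0.00016) on sarcomere scaling. Oxtr (chr6:112473683-112489943), the oxytocin receptor, was at 0.457, 1.33, 1.24, 0.285 and 0.212 CPM against 13.3, 4.39 and 11.3 CPM (3.78 ± 0.60, adjusted p = 0.0011). Cured mouse 3 was the lowest of the cured mice for both receptors. Il31ra (chr13:112519898-112594360), the receptor subunit for IL31, was at 0.280, 0.607, 0.633, 0.606 and 0.265 CPM against 4.73, 2.71 and 7.84 CPM (3.42 ± 0.43, adjusted p = 0.00035), and cured mouse 3 was again lowest. Ostn (chr16:27307489-27351212), osteocrin, a peptide hormone of muscle and bone, was at 0.422 to 2.20 CPM against 7.88, 12.2 and 14.4 CPM (3.76 ± 0.53, adjusted p = 0.00067). Crip3, a LIM-domain protein, rose by 3.73 ± 0.68 (adjusted p = 0.0024), Agbl1, a carboxypeptidase that trims polyglutamate, by 3.48 ± 0.60 (adjusted p = 0.0018) and the long noncoding RNA B230312C02Rik by 3.72 ± 0.43 (adjusted p = 0.00024). Dok5, an adaptor of receptor kinases, was at 0.534 to 0.915 CPM against 6.07 to 8.68 CPM (3.33 ± 0.26, adjusted p = 0.00011). These 8 and the muscle genes Ckmt2 and Myh2 stayed above 0 on sarcomere scaling, where Dok5 had an adjusted p of 0.060 and the others stayed called.

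Of the 10 genes with the largest falls by log2 fold change, among called genes with at least 5 CPM in the higher group and no overlap, 7 had no count in any cured library. These 7 were Guca2b, Ttr, Slc13a1, Vstm2l, Cyp2b10, Chil4 and Slc26a9. Mmp7, with 1 count in the cured libraries, and Tff2, with 3, were also among the 10. Ttr, the carrier of thyroid hormone, was at least 178-fold lower and Vstm2l at least 139-fold. Slc13a1, a sulfate carrier of gut and kidney, was at least 141-fold lower. Cyp2b10, a cytochrome P450 of liver and gut, was at least 130-fold lower. Chil4, a chitinase-like protein of stomach and macrophages, was at least 114-fold lower. Slc26a9, an ion carrier of gastric surface cells, was at least 112-fold lower. Liver genes were checked as a sign of stray tissue: 8 of 9 tested were lower (5 without cured mouse 4), and Apob, which gut also makes, was at 21.2 to 110 CPM in the untreated mice and at 0.649, 0.0452 and 0 CPM in the cured mice, while Alb, the defining gene of liver, stayed between 0.0254 and 0.742 CPM. The liver list summed to 675 CPM in untreated mouse 4 and to 239 to 312 CPM in the other untreated mice. The source of the liver gene counts was not tested. Of the pancreas genes, Cela1 fell by 5.86 ± 0.61 (edgeR adjusted p = 0.00018) and 1 other was tested. Of 4 tested epidermis and hair follicle genes 1 was lower, and of the blood genes 1 was tested and not called.

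Of 25 tested genes that the study stained or labelled, 7 were lower and 1 higher, near or under the shares of all genes. Without untreated mouse 2, 13 of the 25 were called. Beside those described, Eomes, a factor of effector T cells and NK cells, was at 1.18 to 2.69 CPM in the untreated mice and had 3 counts in cured mouse 2 and none in cured mice 3 and 4. Slit2, a guidance ligand, fell by 2.35 ± 0.35 (adjusted p = 0.00081). Cd68, a lysosomal marker of macrophages, was at 16.1 to 51.3 CPM against 20.8 to 24.5 CPM (adjusted p = 0.22; 0.026 without untreated mouse 2).

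The dual ICI mice 1 and 5 of the same day, which the study does not count as cured, were set beside both groups. With TMM over all 19 libraries of day 35, Epcam was at 494 and 490 CPM in these mice, against 117 to 451 CPM in the untreated and 0.340 to 5.41 CPM in the cured mice. Myh2 was at 468 and 240 CPM, against 486 to 834 CPM and 5773 to 6368 CPM. Pgr was at 0.484 and 0.303 CPM, against 0.0294 to 0.335 CPM and 2.38 to 9.39 CPM. Cd8a was at 8.61 and 9.10 CPM, against 2.05 to 4.74 CPM and 1.19 to 3.09 CPM. For Epcam, Myh2 and Pgr these mice lay outside the cured range, and for Cd8a they lay above both groups. With 2 such mice the values are a description without a test.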

How the data were processed

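RNA-seq was run on stripped peritoneum, 1 library a mouse. The authors deposited raw counts per gene, made per the labels with STAR 2.7.0f and featureCounts 1.6.4 on mm10, while the study's text names other tools, and strand setting and annotation are not given in the sources used here. Overlapping and near-identical genes are therefore uncertain. Counts were tested with edgeR 4.0.16 (filterByExpr, TMM, quasi-likelihood test, Benjamini-Hochberg adjustment) on 5 untreated and 3 cured libraries without a covariate, with calls at an adjusted p under 0.05. CPM used the TMM-scaled totals. On simulated counts with 15542 genes, 24 of 100 genes changed 2-fold and 91 of 100 changed 4-fold were called, with 9 false calls. Recovery and false calls in a comparison with 7067 of 15816 genes called, where the split depends on the scaling, was not tested.

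Named genes were the 10 with the largest change each way (adjusted p under 0.05, no overlap, at least 5 CPM in the higher group), the 5 with the highest level in each group, members of 56 lists with the lowest adjusted p or that define the list, and genes the study stained or labelled. A few further members were named after their values were seen, to complete small counts. The comparison and lists were chosen with earlier results of these data known. Alternatives were other scalings, DESeq2 1.42.0, other count filters, all 19 libraries of day 35, a replicate block and leaving out each library. Positions are from GENCODE on GRCm38. P-values measure the spread between mice, and counting intervals and floors cover counting error only. A few genes are not reported here.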

Additional observations from a re-analysis of the deposited data

Results flagged for a closer look

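Of 190 genes checked, those named or plotted, 17 had 1 untreated library far from the other 4. The gap to its neighbour was over 0.71 of the group's range (Dixon's test), which chance gives for about 5% of genes. In 15 of the 17 it was untreated mouse 2. It was highest for Myh4 (58500 CPM), Zfp106 (1636 CPM), Uqcrc2 (239 CPM), Ndufs1 (147 CPM), Tek (38.1 CPM), Bhlhe41 (36.8 CPM), Agbl1 (4.52 CPM), B230312C02Rik (2.51 CPM), Crip3 (2.43 CPM) and Ostn (2.20 CPM). It was lowest for B2m, the light chain of MHC class I (361 CPM), Epcam (106 CPM), Elf3 (57.0 CPM), the squamous gene Sprr2a3 (15.9 CPM) and Cyp2b10 (1.22 CPM). Its share of sarcomere counts was 20.98%, and the part of that share in these values was not tested. The others were Ankrd1, at 174 CPM in untreated mouse 5, and Tnfrsf9, at 4.24 CPM in untreated mouse 4.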

How the results depend on the processing

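The count of 7067 called genes stayed within 1.5 times, at 5796 to 8573, under RLE, upper-quartile and library-total scaling, both other count filters, DESeq2, all 19 libraries of day 35 and without muscle and epithelium genes. It was 11720 on sarcomere scaling. Leaving out 1 library gave 4491 to 9388, with the lowest counts without cured mouse 3 and cured mouse 4. Replicate numbers did not pair the mice (correlations of -0.179, 0.16 and -0.0866), and the replicate block called 4016. The causes were not tested. Among the genes named or plotted, those that turned direction, as log2 fold change relative to the median of all genes, were uncalled ones near 0. Taking out that median removes the shift that a scaling gives to all genes. Without that step, sarcomere scaling gave 267 of the 7067 called genes the opposite call. Among these were Jak1 (-1.42, edgeR adjusted p = 0.025) and Axl (-1.49, edgeR adjusted p = 0.022), both called higher under TMM. Anpep, Fap and Adamts5 were also called higher under TMM and lower on sarcomere scaling. Upk3b was at -0.03 on library totals, -0.11 on sarcomere scaling, -0.06 with 10 counts in every library, -0.06 with the replicate block and -0.35 to 0.43 leaving out 1 library. Csf1r was at -0.00 with upper-quartile scaling, -0.04 on library totals, -0.12 on sarcomere scaling, -0.07 with 10 counts and -0.12 to 0.13 leaving out 1 library. Mrc1 was at -0.09 on sarcomere scaling, -0.01 with 10 counts and -0.05 to 0.33 leaving out 1 library. Acta2 was at 0.02 on sarcomere scaling and -0.14 to 0.04 leaving out 1 library.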

Other observations

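Hair follicle genes stood out in 1 cured library. Cured mouse 3 was at 18.6 CPM for Tchh, trichohyalin, at 10.4 CPM for Krt71, at 5.43 CPM for Krt25 and at 2.53 CPM for Krt27, keratins of the inner root sheath. Tchh was at 0.569 to 4.85 CPM in the untreated mice and at 0.881 and 0.975 CPM in cured mice 2 and 4, and Krt25 and Krt27 had no count in any other library. These genes were not tested as a group.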
